A study of Mus musculus with 6 samples.

Results

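The genes of cholesterol and fatty acid synthesis, with their regulators and the genes of sterol export, were followed in mouse cardiac fibroblasts with floxed *Tet3* that did or did not receive Cre. They were picked by name for their known roles, with earlier results of these data known, and make up 37 of the 22063 genes in the table. All 37 had enough counts to be tested. The fibroblasts came from hearts of mice with floxed *Tet3* alleles and were transduced in culture with an adenovirus coding for green fluorescent protein (GFP, genotype label Control) or for Cre recombinase (CRE, genotype label Tet3 knockout), which excises DNA between loxP sites. Both groups then received TGF-β, which drives fibroblasts towards matrix-producing myofibroblasts, for about a day per the study's methods. There were 3 libraries in either group. The question asked by setting CRE against GFP is how RNA levels under TGF-β depend on *Tet3*, whose product oxidises methylated cytosines in DNA. Floxed cells without TGF-β and cells with Cre but no floxed allele were not analysed here, so an effect of Cre itself cannot be told apart from loss of *Tet3*. The mice were on a C57BL/6 J background per the study's methods, and the labels give no age or sex. The study calls its replicates biological, but the sources used here do not say whether the libraries came from separate animals or from separate cultures, so p-values measure the spread between these libraries.

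Cells build cholesterol from acetyl-CoA through mevalonate, isoprenoid and sterol intermediates, and fatty acids from the same precursor through malonyl-CoA, chain extension and the introduction of double bonds. Transcription of both sets of enzymes is driven by the SREBP factors, coded by *Srebf1* and *Srebf2*. SCAP escorts these factors from the endoplasmic reticulum for cleavage when sterol is low, and the INSIG proteins hold SCAP back when sterol is high. The LXR receptors, which sense oxysterols, induce sterol export and *Srebf1*. Fibroblasts make their own sterols and membrane lipids by these routes.

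*Tet3* itself had raw counts of 1044, 965 and 1000 in GFP and 642, 649 and 637 in CRE, so the groups did not overlap. Its mean fell to 60.8% of the 57.1 ± 6.88 CPM (SD, n = 3) in GFP (log2 fold change of -0.72, edgeR adjusted p of 5.36e-05). CPM is the read count scaled to the effective library size. The count covers the whole gene and does not separate the floxed exons from the rest. Total counts were between 17002126 and 20343590 per library, and counts of the 37 genes ran from 64 to 39662. Of 8 fibroblast markers 7 were lower in CRE (25.7% of all tested genes) and *Thy1* did not pass the test. Their sum was between 28973 and 30122 CPM in GFP and between 17879 and 19279 CPM in CRE, most of it from the collagens *Col1a1* and *Col1a2*. Without those genes the sum was between 4042 and 4320 CPM in GFP and between 2700 and 2903 CPM in CRE. The CRE mean of that sum was 66.3% of the GFP mean. By marker, *Tcf21* was at 28.7%, *Lum* 36.4%, *Pdgfra* 54.7%, *Dcn* 57.5%, *Vim* 81.9% and *Thy1* 93.5% of GFP. All values are relative to TMM scaling, under which the median log2 fold change of the 12862 tested genes was 0.0052. Scaling by library size alone moved that median to 0.17.

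Most genes of lipid synthesis fell together in CRE libraries. At an edgeR adjusted p under 0.05, 29 of the 37 were lower and 3 were higher, and 5 did not pass. Among all tested genes 25.7% were lower and 25.5% higher at that threshold. Among the 8808 genes whose mean reached 10 CPM, the shares were 29.0% lower and 28.2% higher. The median log2 fold change of the 37 genes was -0.64, with values from -1.40 (*Fdps*) to 0.99 (*Abcg1*). For 33 of the 37 the CRE and GFP libraries did not overlap, as was so for 59.6% of all tested genes. *Ebp*, *Nr1h2*, *Nr1h3* and *Abca1* were the 4 whose groups overlapped. The threshold of the study, a fold over 1.5 or under 0.66 at an unadjusted p under 0.05, was applied to the edgeR values. The study itself used DESeq. At that threshold 20 of the 37 were lower and 1 was higher, beside 10.3% lower and 7.52% higher of all tested genes. Of the 26 synthesis enzymes, 25 were lower and none was higher. Together these 26 genes took 0.627% ± 0.034 (SD, n = 3) of all counts in GFP and 0.388% ± 0.014 (SD, n = 3) in CRE. *Scd2* and *Scd1* were the largest of them, at means of 2163 and 756 CPM in GFP. The summed level of the 26 was 7042, 6555 and 6314 CPM in GFP and 3552, 3655 and 3801 CPM in CRE. GFP replicate 1 was the highest of these, and it also stood furthest from its group in counts over all genes (chi-square per degree of freedom of 12.3 and 9.48 in its pairs, and from 4.07 to 5.55 in the other pairs). Without it, 29 of the 37 were lower and 2 higher. In bulk RNA, fewer cells that use these genes and less RNA per cell cannot be told apart.

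**Figure D1:**
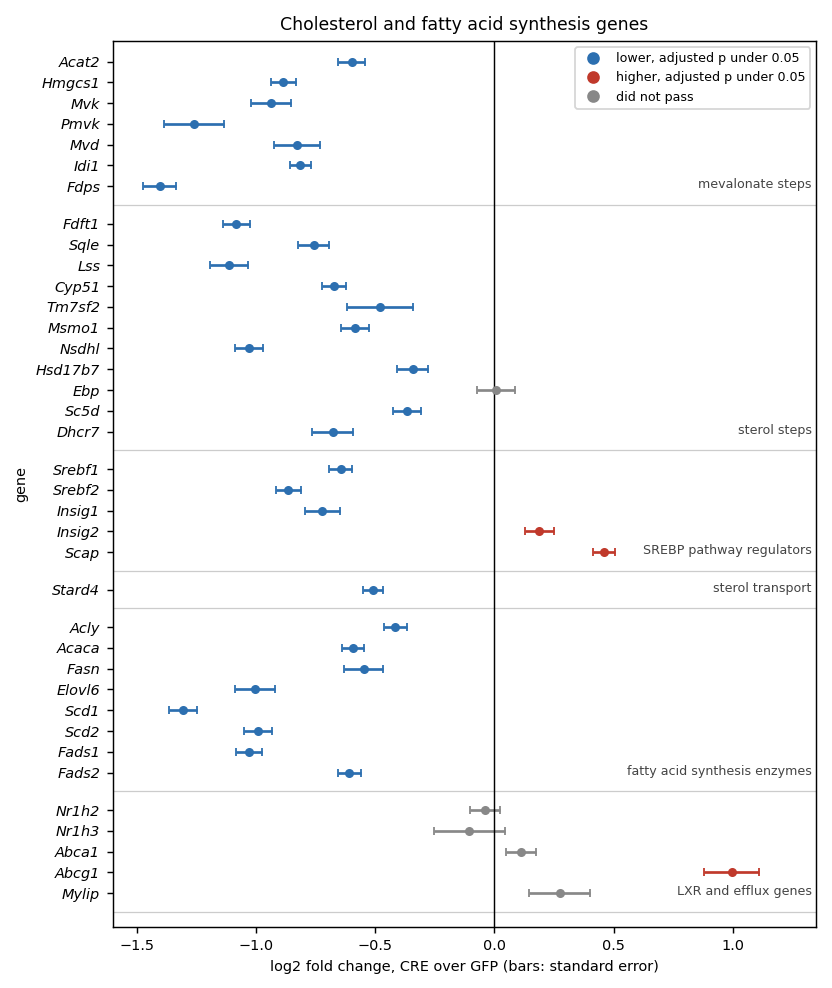
Log2 fold change (horizontal axis, CRE over GFP) of each of the 37 genes, grouped by role, with bars for the standard error and colour for the edgeR call. The 25 synthesis enzymes that passed all lie left of 0, *Ebp* lies at 0.0065, and *Insig2*, *Scap* and *Abcg1* are the 3 called genes to the right.

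The enzymes that turn acetyl-CoA into farnesyl diphosphate, the mevalonate steps, were all lower. All 7 passed the test as lower (25.7% of all tested genes), with a median log2 fold change of -0.89. *Fdps*, farnesyl diphosphate synthase, fell the most of the 37 genes. Its raw counts were 3249, 3021 and 3278 in GFP and 1251, 1211 and 1338 in CRE. Even the lowest GFP library lay far above the highest CRE library. Its mean in CRE was 37.8% of the 181 ± 18.3 CPM (SD, n = 3) in GFP. The log2 fold change was -1.40 ± 0.07 (SE), at an adjusted p of 3.86e-07 in edgeR. *Fdps* (ENSMUSG00000059743) lies on chromosome 3, positions 89093588 to 89101959 of GRCm38, minus strand, and 26.7% of its exon bases overlap the model *Gm43738* on the same strand, so some of its reads may have gone uncounted.

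*Pmvk*, phosphomevalonate kinase, had raw counts of 254, 217 and 295 in GFP and 102, 116 and 117 in CRE. Every CRE library lay well below every GFP library, and the log2 fold change was -1.26 ± 0.13 (SE) at edgeR's adjusted p of 2.38e-05. Its mean fell from 14.5 ± 1.94 to 6.03 ± 0.49 CPM (SD, n = 3). *Hmgcs1*, which makes HMG-CoA, had 99.1 ± 2.84 FPKM in GFP and 60.1 ± 3.45 FPKM in CRE (SD, n = 3). FPKM is the fragment count scaled to transcript length and to library size. Its log2 fold change was -0.89. *Mvk* (mevalonate kinase, -0.94), *Mvd* (mevalonate diphosphate decarboxylase, -0.83) and *Idi1* (isopentenyl diphosphate isomerase, -0.81) had similar log2 fold changes. *Acat2*, the thiolase of the first step, changed least of the 7 at -0.60. It shares 28.9% of its 100-base exon sequences with *Acat3* and *Tcp1*, *Idi1* shares 21.9% with other gene models, and *Hmgcs1* shares 8.22%, so their counts are less certain.

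Promoters of the cholesterol enzymes are shown for the lowest called genes with a reference promoter (*Pmvk*, *Lss*, *Nsdhl*), for *Hsd17b7*, which changed least of the enzymes that passed, and for *Hmgcs1*, chosen after its match was seen. Each run is 300 bases from RefSeq (GRCm38.p6), from 250 bases before to 50 bases after the annotated start, 5′ to 3′ in the direction of transcription. Capitals mark matches on either strand to the sterol regulatory element TCACNCCAC, the NF-Y box CCAAT or the E-box CACGTG. Where a gene has several starts, the most upstream is shown.
Hmgcs1, chr13:119690101-119690400, plus strand: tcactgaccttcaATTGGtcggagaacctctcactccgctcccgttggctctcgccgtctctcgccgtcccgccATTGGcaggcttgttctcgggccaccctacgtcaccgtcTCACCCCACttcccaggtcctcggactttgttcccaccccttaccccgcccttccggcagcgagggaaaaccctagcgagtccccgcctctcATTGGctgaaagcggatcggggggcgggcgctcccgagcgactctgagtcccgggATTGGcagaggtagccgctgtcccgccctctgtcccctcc
Pmvk, chr3:89454291-89454590, plus strand: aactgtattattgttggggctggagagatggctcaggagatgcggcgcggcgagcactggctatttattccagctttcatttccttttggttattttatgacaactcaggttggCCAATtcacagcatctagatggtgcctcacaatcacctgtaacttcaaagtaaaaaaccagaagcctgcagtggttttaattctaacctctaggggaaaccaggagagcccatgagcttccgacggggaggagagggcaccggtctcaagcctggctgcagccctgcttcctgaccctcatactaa
Lss, chr10:76531355-76531654, plus strand: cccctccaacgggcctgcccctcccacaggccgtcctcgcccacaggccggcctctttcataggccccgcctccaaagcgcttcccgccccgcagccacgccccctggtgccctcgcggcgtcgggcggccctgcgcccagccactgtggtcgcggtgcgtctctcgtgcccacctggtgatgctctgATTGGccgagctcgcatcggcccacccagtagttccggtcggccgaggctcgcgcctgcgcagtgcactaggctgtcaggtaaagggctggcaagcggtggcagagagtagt
Nsdhl, chrX:72918271-72918570, plus strand: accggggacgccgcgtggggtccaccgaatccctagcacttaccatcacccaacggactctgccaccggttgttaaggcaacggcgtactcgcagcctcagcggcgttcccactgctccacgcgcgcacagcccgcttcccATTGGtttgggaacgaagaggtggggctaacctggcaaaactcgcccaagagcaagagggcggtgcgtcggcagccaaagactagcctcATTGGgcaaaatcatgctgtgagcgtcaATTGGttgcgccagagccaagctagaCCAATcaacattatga
Hsd17b7, chr1:169969156-169969455, minus strand: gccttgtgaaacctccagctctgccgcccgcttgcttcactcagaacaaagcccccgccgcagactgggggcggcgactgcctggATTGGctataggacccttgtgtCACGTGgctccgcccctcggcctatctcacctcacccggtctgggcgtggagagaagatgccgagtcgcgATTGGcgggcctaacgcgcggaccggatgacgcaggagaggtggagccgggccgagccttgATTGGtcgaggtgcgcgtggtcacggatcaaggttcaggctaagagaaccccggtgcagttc
The *Hmgcs1* promoter held a sterol regulatory element at position -137, counted from the start, and 4 NF-Y boxes. *Pmvk* and *Lss* held 1 NF-Y box each, at positions -136 and -62, *Nsdhl* held 4, and *Hsd17b7* held 3 with 1 E-box. Of the 37 genes, 29 had a promoter in the reference, and none was used for *Stard4*, *Fdft1*, *Scd2*, *Fads1*, *Abcg1*, *Sqle*, *Scd1* or *Fdps*. A gene was counted where any of its promoters held the motif. NF-Y boxes were in 21 of the 29 (72.4%), compared with 41.1% of the 27025 genes with a promoter and 43.4% of the 10120 of them tested. Among the 22 lower genes with a promoter, 18 held one. E-boxes were in 6 of the 29 (20.7%, compared with 8.09% of all genes and 11.7% of those tested), and the sterol regulatory element in 1, *Hmgcs1* (1.44% of all genes and 1.38% of those tested). Only these spellings within the 300 bases were searched, so other spellings and sites elsewhere were not covered. The matches describe the letters in the window and show no binding.

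The sterol steps, from farnesyl diphosphate to cholesterol, were lower in 10 of 11 genes (25.7% of all tested genes). Their median log2 fold change was -0.67. *Fdft1*, squalene synthase, commits farnesyl diphosphate to sterols. Its raw counts were 2342, 2372 and 2478 in GFP and 1239, 1105 and 1228 in CRE, and the groups did not overlap. The log2 fold change was -1.08 ± 0.06 (SE) at edgeR's adjusted p of 5.08e-07. *Fdft1* (ENSMUSG00000021273) is on chromosome 14, positions 63145150 to 63179578 of GRCm38, minus strand, where 18.3% of its exon bases lie opposite exons of *Ctsb*. Whether counting used the strand is not stated. *Lss*, lanosterol synthase, closes the sterol rings. It had raw counts of 1327, 1200 and 1316 in GFP and 591, 622 and 657 in CRE. Each CRE library lay below every GFP library, and the mean fell from 72.8 ± 8.38 to 33.6 ± 1.63 CPM (SD, n = 3). The log2 fold change was -1.11 ± 0.08 (SE), at an adjusted p of 3.12e-06 in edgeR. *Nsdhl*, a sterol dehydrogenase of C4 demethylation coded on chromosome X, was the third sterol step below -1, at -1.03.

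The other sterol steps had log2 fold changes nearer 0. *Sqle* (squalene epoxidase) had a log2 fold change of -0.76, *Dhcr7* (the reductase of the last step) -0.68, *Cyp51* (lanosterol demethylase) -0.67 and *Msmo1* (a methylsterol oxidase) -0.58. *Tm7sf2*, a sterol reductase, was lower by a log2 fold change of -0.48 with an edgeR adjusted p of 0.0153. That call was lost under library size alone (adjusted p of 0.0720) and without CRE replicate 3 (adjusted p of 0.0570), both from edgeR, and 12.1% of its exon bases overlap *Vps51* on the same strand. *Sc5d*, a sterol desaturase, had raw counts of 2782, 2814 and 2842 in GFP and 2379, 2214 and 2290 in CRE. Its groups did not overlap, and the log2 fold change of -0.37 ± 0.06 (SE) had an adjusted p of 0.000536 in edgeR. *Hsd17b7*, a sterol ketoreductase, had raw counts of 1915, 2167 and 2126 in GFP and 1550, 1766 and 1819 in CRE. The gap between the groups was narrow, and the log2 fold change of -0.34 ± 0.07 (SE) had an adjusted p of 0.00162 in edgeR. Neither *Sc5d* (limma adjusted p of 0.0865) nor *Hsd17b7* (limma adjusted p of 0.107) passed on log2(FPKM + 1) values. *Ebp*, the sterol isomerase, was the enzyme that did not pass. Its raw counts were 428, 475 and 482 in GFP and 489, 429 and 543 in CRE, the groups overlapped, and its log2 fold change was 0.0065 ± 0.08 (SE) at edgeR's adjusted p of 0.955. Its direction differed between fits, from -0.060 to 0.18.

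Summed over the 18 cholesterol enzymes, the level was 2030 ± 118 CPM in GFP and 1195 ± 17.7 CPM in CRE (SD, n = 3), 58.8% of the GFP level. Summed FPKM gave means of 797 and 514, or 64.5% of the GFP level. The sums ran from 1927 to 2159 CPM in GFP and from 1179 to 1214 CPM in CRE, so no library of one group reached the other. Ratios of counts within a library need no scaling, and 6 pairs of genes were compared that way, chosen after their values were seen. *Fdps* over *Ebp* was 7.59, 6.36 and 6.80 in GFP and 2.56, 2.82 and 2.46 in CRE, a difference of -1.40 (SE 0.09) on the log2 scale. Since the pairs were picked for their values, the ratios are a description and no test is given.

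**Figure D2:**
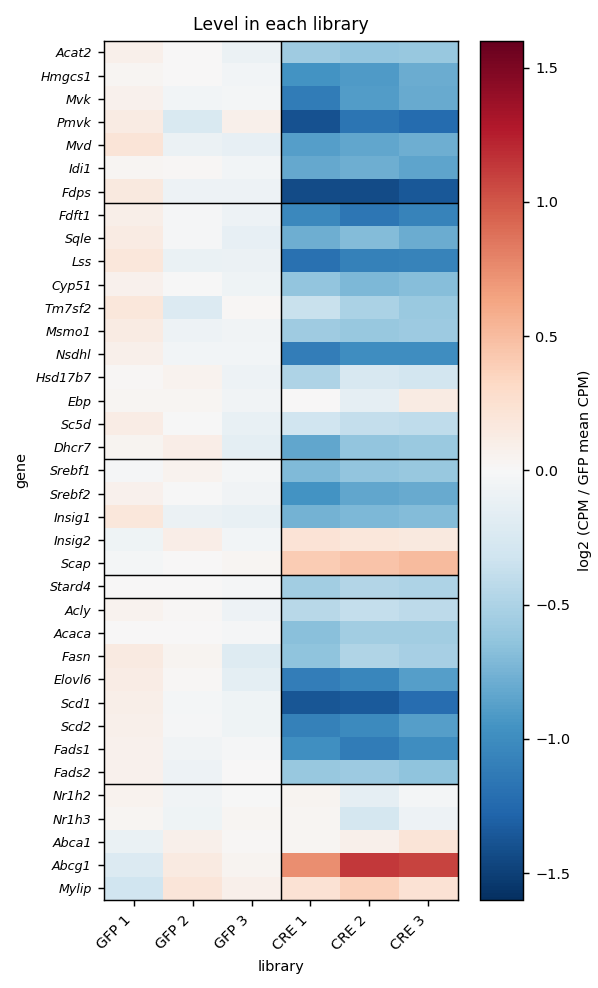
Level of each of the 37 genes in each library, as log2 of its CPM over the GFP mean (colour), with genes in rows by role and libraries in columns. The 3 CRE columns are blue for most enzymes, pale for *Ebp*, *Nr1h2*, *Nr1h3* and *Abca1*, light red for *Insig2* and *Mylip* (114% and 121% of the GFP mean), and a stronger red for *Scap* and *Abcg1* (137% and 199.8%).

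The regulators did not move one way. All 5 of the SREBP pathway passed the test, 3 of them lower and 2 higher. Of all tested genes 25.7% were lower and 25.5% higher. *Srebf2*, the SREBP that mainly drives cholesterol synthesis, had raw counts of 3457, 3618 and 3807 in GFP and 1975, 2086 and 2220 in CRE. Its groups were far apart, and its mean fell from 206 ± 8.68 to 113 ± 5.98 CPM (SD, n = 3). The log2 fold change was -0.86 ± 0.05 (SE), at an adjusted p of 1.13e-06 in edgeR. *Srebf2* (ENSMUSG00000022463) lies on chromosome 15, positions 82147181 to 82205379 of GRCm38, plus strand. *Srebf1*, the SREBP that mainly drives fatty acid synthesis, had raw counts of 1597, 1848 and 1891 in GFP and 1152, 1173 and 1252 in CRE. The groups again did not overlap, and its log2 fold change was -0.64 ± 0.05 (SE) at edgeR's adjusted p of 3.46e-06. It lies on chromosome 11, positions 60199089 to 60222581, minus strand. The counts are of whole genes and do not separate the isoforms of *Srebf1*.

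*Insig1*, which holds SCAP in the endoplasmic reticulum and is itself an SREBP target, had raw counts of 3734, 3402 and 3634 in GFP and 2256, 2244 and 2386 in CRE. All CRE libraries were lower, with a log2 fold change of -0.72 ± 0.07 (SE) at edgeR's adjusted p of 2.69e-05. *Insig2*, its paralog, had raw counts of 571, 711 and 699 in GFP and 811, 765 and 788 in CRE. Its CRE libraries lay just above the GFP libraries, with a log2 fold change of 0.19 ± 0.06 (SE) at edgeR's adjusted p of 0.0256. The *Insig2* call was lost in DESeq2 (adjusted p of 0.0874), on FPKM values, and without GFP replicate 1 or 3 or CRE replicate 1 or 2 (edgeR adjusted p from 0.0563 to 0.0875). *Insig1* over *Insig2* was 6.54, 4.78 and 5.20 in GFP and 2.78, 2.93 and 3.03 in CRE, a difference of -0.91 (SE 0.14) on the log2 scale. *Scap*, the escort, had raw counts of 1225, 1395 and 1532 in GFP and 1927, 1941 and 2105 in CRE. Every CRE library exceeded every GFP library, and its mean rose from 78.1 ± 1.77 to 107 ± 3.81 CPM (SD, n = 3). The log2 fold change was 0.46 ± 0.05 (SE), at an adjusted p of 2.37e-05 in edgeR. Of its exon bases 13.2% lie opposite another gene model. The ratio of *Scap* to *Srebf2* was 0.354, 0.386 and 0.402 in GFP and 0.976, 0.930 and 0.948 in CRE, the highest CRE over GFP difference of the 6 pairs at 1.32 (SE 0.06) on the log2 scale. That of *Srebf1* to *Srebf2* differed by 0.22 (SE 0.05).

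The promoters of the higher regulators follow, marked in the same way as those of the enzymes.
Scap, chr9:110333038-110333337, plus strand: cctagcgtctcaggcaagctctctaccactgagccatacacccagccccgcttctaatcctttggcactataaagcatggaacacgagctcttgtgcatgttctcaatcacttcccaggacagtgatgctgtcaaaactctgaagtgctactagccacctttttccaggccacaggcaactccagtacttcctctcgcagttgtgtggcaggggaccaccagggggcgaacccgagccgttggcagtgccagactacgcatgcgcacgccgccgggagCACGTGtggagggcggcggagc
Insig2, chr1:121332540-121332839, minus strand: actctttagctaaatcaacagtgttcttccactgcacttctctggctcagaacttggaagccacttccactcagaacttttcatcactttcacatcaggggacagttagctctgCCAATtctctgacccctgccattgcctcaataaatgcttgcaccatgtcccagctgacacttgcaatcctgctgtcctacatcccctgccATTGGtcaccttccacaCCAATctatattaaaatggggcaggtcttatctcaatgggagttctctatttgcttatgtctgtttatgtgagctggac
The *Scap* promoter held an E-box at position 29 and no NF-Y box, and that of *Insig2* held 3 NF-Y boxes. Neither held the sterol regulatory element as spelled here.

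**Figure D3:**
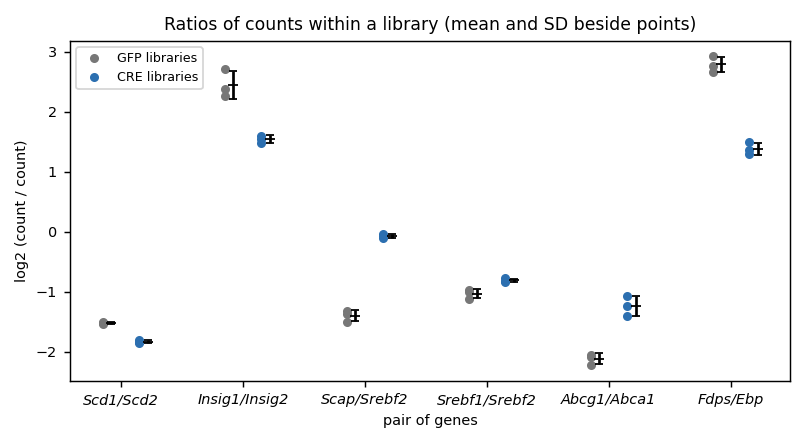
Ratio of the counts of 2 genes within each library, on a log2 axis, for 6 pairs, with points for libraries and bars for the mean and SD (n = 3). The CRE points lie clear of the GFP points in each pair, with differences from -1.40 (*Fdps* over *Ebp*) to 1.32 (*Scap* over *Srebf2*).

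Among partners of SREBP cleavage and INSIG turnover, 3 of 10 genes were higher and 3 lower, with a median log2 fold change of 0.014. Those shares are near the 25.5% higher and 25.7% lower of all tested genes. *Tmem97*, a sterol-responsive membrane protein, was lowest at -0.62, and *Erlin1*, a sterol-binding protein of the endoplasmic reticulum, highest at 0.37. *Stard4*, which carries sterol between membranes, had raw counts of 2696, 2988 and 3183 in GFP and 2111, 2175 and 2243 in CRE. Its groups did not overlap and its log2 fold change was -0.51. In the isoprenoid branch, which draws on farnesyl diphosphate for coenzyme Q, dolichol and protein prenylation, 4 of 9 genes were higher (25.5% of all tested genes) and none was lower, with a median log2 fold change of 0.025, and with *Pdss2* at 0.52 and *Pggt1b* at 0.32.

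The fatty acid enzymes were lower in 8 of 8 genes (25.7% of all tested genes), with a median log2 fold change of -0.80. *Scd1*, a stearoyl-CoA desaturase that makes monounsaturated fatty acids, had raw counts of 13012, 13122 and 13837 in GFP and 5463, 5391 and 6159 in CRE. All CRE libraries were under all GFP libraries, at 40.4% of the 756 ± 47.2 CPM (SD, n = 3) in GFP. The log2 fold change was -1.31 ± 0.06 (SE), at an adjusted p of 2.53e-07 in edgeR. *Scd1* (ENSMUSG00000037071) is on chromosome 19, positions 44394455 to 44407879 of GRCm38, minus strand. Its paralog *Scd2*, on the same chromosome, had 36834, 37947 and 39662 counts in GFP and 19009, 19290 and 22207 in CRE, a log2 fold change of -0.99. *Scd2* was the most abundant of the 37 genes per transcript length, at 375 ± 19.6 FPKM in GFP and 211 ± 15.6 FPKM in CRE (SD, n = 3), and *Scd1* had 151 ± 9.02 and 67.3 ± 4.56 FPKM. The ratio of *Scd1* to *Scd2* counts was 0.353, 0.346 and 0.349 in GFP and 0.287, 0.279 and 0.277 in CRE. The ratio was lower in all 3 CRE libraries, with a difference of -0.31 (SE 0.02) on the log2 scale. A share of 2.58% of the 100-base exon sequences of *Scd1* is shared with other genes, its paralogs among them.

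*Fads1* and *Fads2*, neighbouring desaturases of polyunsaturated fatty acids, had log2 fold changes of -1.03 and -0.61. *Elovl6*, which lengthens palmitate, had raw counts of 1135, 1170 and 1118 in GFP and 559, 570 and 669 in CRE. No library of either group reached the other, and its mean in CPM was 49.8% of that in GFP. The enzymes of the first steps had log2 fold changes nearer 0, with *Acaca* (acetyl-CoA carboxylase) at -0.59, *Fasn* (fatty acid synthase) at -0.55 and *Acly* (ATP citrate lyase) at -0.42. *Acaca* shares 23.7% of its 100-base exon sequences with other gene models. Summed over the 8 genes, the level was 4607 ± 252 CPM in GFP and 2475 ± 107 CPM in CRE (SD, n = 3), 53.7% of the GFP level. *Scd2* and *Scd1* gave most of it, with means of 2163 and 756 CPM in GFP, and fell to 50.3% and 40.4%. *Acly*, *Fasn*, *Acaca* and *Fads2* were at 74.9%, 68.4%, 66.2% and 65.6% of GFP, and *Elovl6* and *Fads1* at 49.8% and 49.0%. At the threshold of the study, 5 of the 8 enzymes were lower, beside 10.3% of all tested genes.

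**Figure D4:**
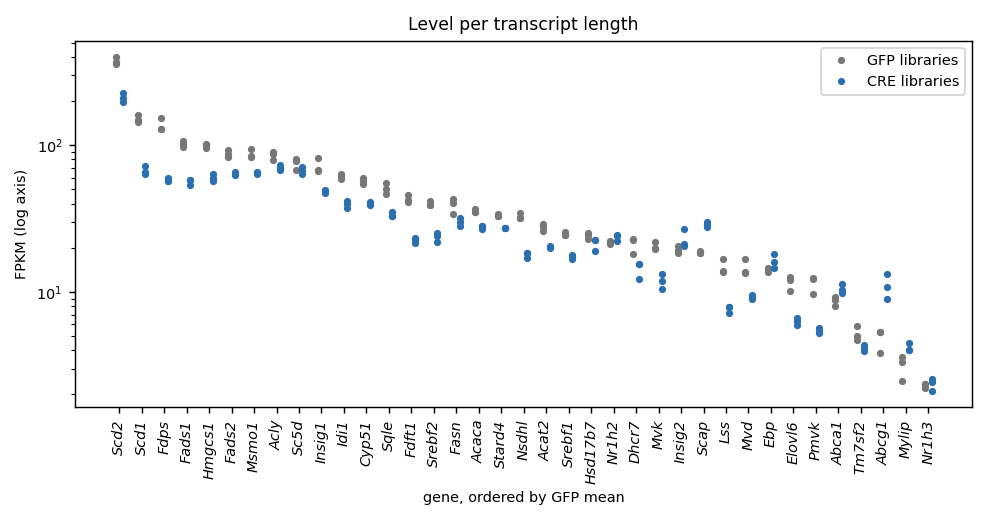
FPKM of each of the 37 genes (log axis) in the 3 GFP and the 3 CRE libraries, with genes ordered by the GFP mean. *Scd2* is highest at 375 FPKM in GFP and 211 in CRE, and *Nr1h3* lowest at 2.30 and 2.36.

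Neighbouring pathways of fatty acids were compared next, beside the 25.7% lower and 25.5% higher of all tested genes. Of 8 genes that supply acetyl-CoA and NADPH, 5 were lower and 1 was higher, with a median log2 fold change of -0.17, and with *Idh1* (cytosolic isocitrate dehydrogenase) at -0.68 and *Acss2* (acetyl-CoA synthetase) at -0.29. Of 13 genes of fatty acid activation and elongation, 5 were lower and 1 higher, with a median log2 fold change of -0.026, and with *Acsl3* (an acyl-CoA synthetase) at -0.37 and *Tecr* (an enoyl reductase) at -0.32. Of 15 genes of fatty acid oxidation, 8 were higher and 1 was lower, with a median log2 fold change of 0.24. *Hadhb*, of the mitochondrial trifunctional protein, was highest at 0.48, and *Etfdh*, which passes electrons to the respiratory chain, followed at 0.43.

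Of the 5 LXR and efflux genes 1 passed the test, and it was higher. That count is near the 25.5% higher of all tested genes. *Abcg1*, which exports sterol to lipoproteins, had raw counts of 301, 428 and 432 in GFP and 680, 861 and 875 in CRE. All CRE libraries were higher, the mean rose from 21.8 ± 2.77 to 43.5 ± 6.05 CPM (SD, n = 3), and the log2 fold change was 0.99 ± 0.11 (SE) at edgeR's adjusted p of 5.89e-05. *Abcg1* (ENSMUSG00000024030) lies on chromosome 17, positions 31057675 to 31117988 of GRCm38, plus strand. *Abca1*, the other exporter, had raw counts of 1403, 1771 and 1831 in GFP and 1791, 1802 and 2063 in CRE. Its groups overlapped, with a log2 fold change of 0.11 ± 0.06 (SE) at edgeR's adjusted p of 0.166. The ratio of *Abcg1* to *Abca1* was 0.215, 0.242 and 0.236 in GFP and 0.380, 0.478 and 0.424 in CRE, a difference of 0.88 (SE 0.11) on the log2 scale. *Nr1h3*, the LXR of macrophages and liver, had 71, 73 and 85 counts in GFP and 82, 64 and 77 in CRE. Its groups overlapped, and a log2 fold change of -0.11 ± 0.15 (SE) had an adjusted p of 0.580 in edgeR. *Nr1h2*, the widely expressed LXR, had -0.039 (adjusted p of 0.631), and *Mylip*, a ubiquitin ligase induced by LXR, 0.27 (adjusted p of 0.101), both from edgeR. *Abca1* and *Mylip* were called higher under library size alone (edgeR adjusted p of 0.00409 and 0.0146) and on log2(FPKM + 1) values (limma adjusted p of 0.0243 and 0.0414).

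**Figure D5:**
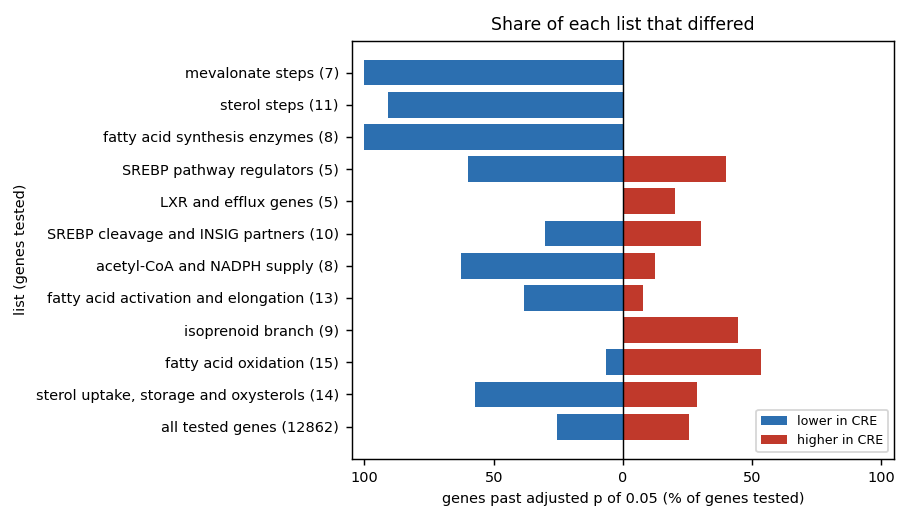
Percent of the tested genes of each list called lower (left) or higher (right) in CRE at an edgeR adjusted p under 0.05, with all 12862 tested genes in the bottom bar. The mevalonate and fatty acid synthesis lists are lower in 7 of 7 and 8 of 8 genes, beside 25.7% of all tested genes.

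Of 14 genes of sterol uptake, storage and oxysterols, 8 were lower and 4 higher (25.7% and 25.5% of all tested genes), with a median log2 fold change of -0.28. *Ch25h*, which makes an oxysterol that restrains SREBP cleavage and activates LXR, had raw counts of 859, 1400 and 1417 in GFP and 366, 322 and 413 in CRE. It was the lowest of these, with a log2 fold change of -1.80 ± 0.14 (SE) at edgeR's adjusted p of 3.98e-06. *Cyp7b1*, an oxysterol hydroxylase, had raw counts of 149, 263 and 246 in GFP and 74, 68 and 75 in CRE and followed at -1.66.

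More markers of other cell types were lower than higher in CRE, beside 25.7% lower and 25.5% higher of all tested genes. *Kdr*, *Cd68*, *Csf1r*, *Itgam* and *Notch3* were tested but did not pass. Of 6 endothelial markers 5 were lower, and their sum was between 342 and 375 CPM in GFP and between 171 and 195 CPM in CRE, 51.2% of the GFP mean. Of 8 macrophage markers 6 were tested and 3 were lower, with sums between 58.9 and 66.5 CPM in GFP and between 34.8 and 38.1 CPM in CRE. The defining marker *Ptprc* held 4 to 10 counts per library. Of 7 adipocyte markers 2 were tested and both were lower, with sums between 12.8 and 15.4 CPM in GFP and between 1.77 and 2.75 CPM in CRE, mostly from *Fabp4*, which endothelial cells also express. *Adipoq*, *Cfd* and *Lep* were at 0 in every library. Of the 6 markers for pericytes and smooth muscle, 4 were lower and 1 was higher, with sums between 89.6 and 98.1 CPM in GFP and between 68.2 and 78.9 CPM in CRE. Without *Cspg4*, the marker that rose, the sums were between 73.9 and 80.3 CPM in GFP and between 37.8 and 41.0 CPM in CRE, 51.3% of the GFP mean. None of 6 cardiomyocyte markers passed the filter, and their sum was at most 0.870 CPM. The part of these markers, and of the fibroblast markers above, in the lower level of the synthesis genes was not tested.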

How the data were processed

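RNA-seq was performed on 6 libraries (3 GFP, 3 CRE), grouped and numbered by their titles. According to the methods of the study, reads were trimmed (Trimmomatic), aligned to GRCm38 (HISAT2) and counted per gene (HTSeq-count), and FPKM came from Cufflinks. Tool versions and the use of strand are not stated, and the labels and methods name different extraction and library kits. The authors deposited raw counts per gene, not normalized. FPKM values per library were deposited by the authors in the same table. The authors' group means, fold changes, p-values and false discovery rates in it were not used.

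Counts of 22063 genes were filtered with filterByExpr (minimum count 10, minimum total 15), scaled by TMM and tested with edgeR 4.0.16 in R 4.3.3 (two-sided quasi-likelihood test, Benjamini-Hochberg adjustment over 12862 genes). Standard errors were derived from each log2 fold change and the F value of its test. The SD is over 3 libraries. Total counts of 17002126 to 20343590 set the precision, and counting error is only part of the spread. No pair of libraries within a group agreed within counting error (chi-square from 4.07 to 12.3 per degree of freedom), so all 6 were kept. Positions and exon overlaps came from GENCODE M21 and promoters from RefSeq, both on GRCm38. Exons were compared with those of other genes by shared runs of 100 bases.

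The genes and lists were chosen with earlier results of these data known. Full values were given for *Srebf1*, *Srebf2*, *Insig1*, *Insig2*, *Nr1h3* and the 5 lowest and 5 highest log2 fold changes among called genes. From each neighbouring list the 2 called genes with the largest absolute change were named. Promoters were printed for the 3 lowest and 3 highest called genes that have one. Any other gene was picked once its values were known. The alternatives were RLE, upper-quartile and library-size scaling, a filter of 1 count in all or of 10 counts in each library, DESeq2 1.42.0, limma 3.58.1 on voom, log2(FPKM + 1) and log2(FPKM + 0.1) values, a block for the replicate number, leaving out a library at a time, and 2 other thresholds (adjusted p under 0.01, and that of the study). An adjusted p that DESeq2 did not give was left missing. Figures were drawn with matplotlib 3.10.9.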

Additional observations from a re-analysis of the deposited data

How the results depend on the processing

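Of the log2 fold changes of the 37 genes under 16 other fits, 563 kept their direction and their side of the threshold, 13 lost the call, 7 gained one and 9 changed sign. No called gene changed sign. The genes called higher numbered 5 under library size alone and 1 at the threshold of the study, at which 5 fatty acid enzymes were lower and 3 SREBP regulators changed. The LXR and efflux genes that changed numbered 3 under library size alone, 3 on log2(FPKM + 1) and 3 on log2(FPKM + 0.1) values, and from 1 to 2 with a library left out (2 without GFP replicate 2, when *Mylip* passed). *Ebp* ranged from -0.060 to 0.077 and *Nr1h2* from -0.079 to 0.012 with a library left out, with *Ebp* at -0.026 without GFP replicate 3. Scaled by library size, *Nr1h2* was 0.12 and *Nr1h3* 0.055. On FPKM values with the larger and the smaller pseudocount, *Nr1h2* was 0.11 and 0.12 and *Nr1h3* 0.025 and 0.034. These 3 fits also raised the median of all tested genes, to 0.17, 0.13 and 0.17, and the cause of the other differences was not tested. Libraries with the same replicate number deviated together with an r across genes of 0.046, 0.180 and -0.018, so the numbers were not taken to pair the libraries. With the replicate block, 29 genes were lower and 3 higher. At 64 to 85 counts per library, *Nr1h3* has an SE of 0.15, and differences of about that size were not detectable.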
